A study of Mus musculus with 8 samples.

Results

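The glucocorticoid receptor gene Nr3c1 and 5 genes grouped with it as receptor targets, Sgk1, Fkbp5, Tsc22d3, Zbtb16 and Sult1a1, were followed in mouse retina. They are 6 of the 26824 genes in the count table, and all 6 passed the filter on low counts. The set was chosen from the change of Sgk1 between the same libraries, so the differences between groups given for these 6 genes are descriptions without a test. RNA was sequenced from 3 wild-type (WT) libraries and 5 libraries labelled as knockouts (KO) of Kv8.2, a silent potassium channel subunit of photoreceptors encoded by Kcnv2. Each library came from 1 mouse at 1 month of age, with its 2 retinas pooled, and no mouse was treated. The strain, the knockout allele, the sex and the hour of collection are not given in the sources used here. All mice lived on a light/dark cycle. The authors stated that 2 KO samples were excluded from their own test without naming them, so all 8 libraries were used, numbered WT 1 to WT 3 and KO 2 to KO 6.

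Glucocorticoids enter cells and bind the receptor, a transcription factor held in the cytoplasm by a chaperone complex built on HSP90. The bound receptor moves to the nucleus and binds palindromic DNA elements, from which it raises or lowers transcription. Sgk1 encodes a serum- and glucocorticoid-regulated kinase that also responds to osmotic and growth factor signals and regulates ion channels and transporters. Fkbp5 encodes a co-chaperone that lowers the receptor's affinity for hormone, Tsc22d3 the anti-inflammatory protein GILZ, and Zbtb16 the zinc finger repressor PLZF. These genes are widely used as readouts of receptor activity. Sult1a1 encodes a cytosolic sulfotransferase that sulfonates phenols.

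The receptor's element was searched for in the promoter sequences of these genes. The genes were grouped as known targets of the receptor, so this search is a description and not independent of their choice. RefSeq windows on GRCm38.p6, each 300 bases long with 250 bases before a transcription start and 50 from it on, were found for 4 of the 6 genes: 6 windows for Sgk1, 3 for Tsc22d3 and 1 each for Fkbp5 and Sult1a1. The element searched was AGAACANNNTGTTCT, an inverted repeat of 6 bases around a spacer of 3, which reads the same on both strands. It occurred in 1 of these 11 windows, that of an Sgk1 start. The window lies at chr10:21993640-21993939 on the + strand and is shown because it holds the element, with the 15 bases of the match in capitals.
Sgk1 promoter window: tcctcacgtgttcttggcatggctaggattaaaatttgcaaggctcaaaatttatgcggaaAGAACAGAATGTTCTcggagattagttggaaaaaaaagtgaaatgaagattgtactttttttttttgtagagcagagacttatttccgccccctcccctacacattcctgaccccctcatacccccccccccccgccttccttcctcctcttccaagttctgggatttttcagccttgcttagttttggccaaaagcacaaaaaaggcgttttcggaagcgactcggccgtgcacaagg
The match spans chr10:21993701-21993715, with 174 bases between it and the start at 21993890. Among all 32851 windows 3 held the element (0.00913%), at Sgk1, Acnat2 and Gm35041. With up to 1 mismatch 54 windows held it (0.164%), and Sgk1's stayed the one among these genes. A single arm of the element, AGAACA or TGTTCT, was in 5 of the 11 windows, against 19.0% of all windows and 11.8% of the 110 windows found for other genes of the pathway. Of those 5 windows 3 belong to Sgk1, 1 of them the window with the whole element, and 1 each to Tsc22d3 and Sult1a1. The search for the whole element in those 110 windows, of 78 of the 104 pathway genes described further on, gave 0 matches, also with 1 mismatch allowed. Only these 300 bases around each start were searched, so the lack of a match does not show that a gene lacks the element. A match is a run of letters and was not tested as a binding site, and counts summed per gene do not show which of the Sgk1 starts was used.

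The libraries held 17759146 to 25188870 counts. Levels are in CPM, the TMM-scaled counts of a gene for each 1000000 counts of a library. Kcnv2 itself was present in every library, at 519 to 551 CPM in WT. In the libraries labelled KO it was at 585 CPM in KO 2 and at 398 to 447 CPM in the others. Its gene-level count therefore does not check the labels. On the main axis of variation (39.5% of the variance) KO 4, KO 5 and KO 6 stood apart at 45.7 to 58.1, while the other 5 libraries lay between -40.2 and -11.9. Mitochondrial transcripts took 3.03% to 3.70% of the counts in KO 4 to KO 6, 5.23% in KO 3, 6.52% in KO 2 and 7.09% to 7.92% in WT. KO 3 carried 4.07% lens crystallin and related counts, against at most 0.119% elsewhere. WT 3 had 2132 counts of the Y-linked gene Ddx3y and 9 of Xist, while the other libraries had 1 to 3 of Ddx3y and 30144 to 59443 of Xist. Rod markers made up 3.33% to 4.82% of the counts of every library, with Sag of 6 higher by the edgeR test described next. By that test 2 of 15 mitochondrial genes, mt-Rnr1 and mt-Co1, and 1 of 5 red cell genes, Hbb-b1, were lower. These counts stand beside 2.84% of all tested genes called lower. Since the KO libraries split in this way, fits of KO 2 and KO 3 alone and of KO 4 to KO 6 alone against WT are given beside those of all libraries for the 6 genes and for most of the pathway genes named. In bulk retina, fewer cells of a type and less RNA per cell cannot be told apart.

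In the comparison of all KO with all WT libraries, edgeR's quasi-likelihood test, adjusted by Benjamini-Hochberg, called 1529 of 20167 tested genes at an adjusted p under 0.05 (7.58%), of which 4.74% of tested genes were higher in KO and 2.84% lower. Of the 6 genes followed here 2 passed that threshold, Sgk1 higher and Sult1a1 lower. Since the same contrast chose them, nothing is read from that count. Sult1a1 did not pass it without WT 1, WT 2, WT 3, KO 4, KO 5 or KO 6, or with KO 2 and KO 3 alone. In 10.8% of tested genes every KO library lay above every WT library, and in 10.1% every KO library lay below. Sgk1 was the one member of the former kind and Sult1a1 of the latter, and in the other 4 genes the groups overlapped.

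**Figure D1:**
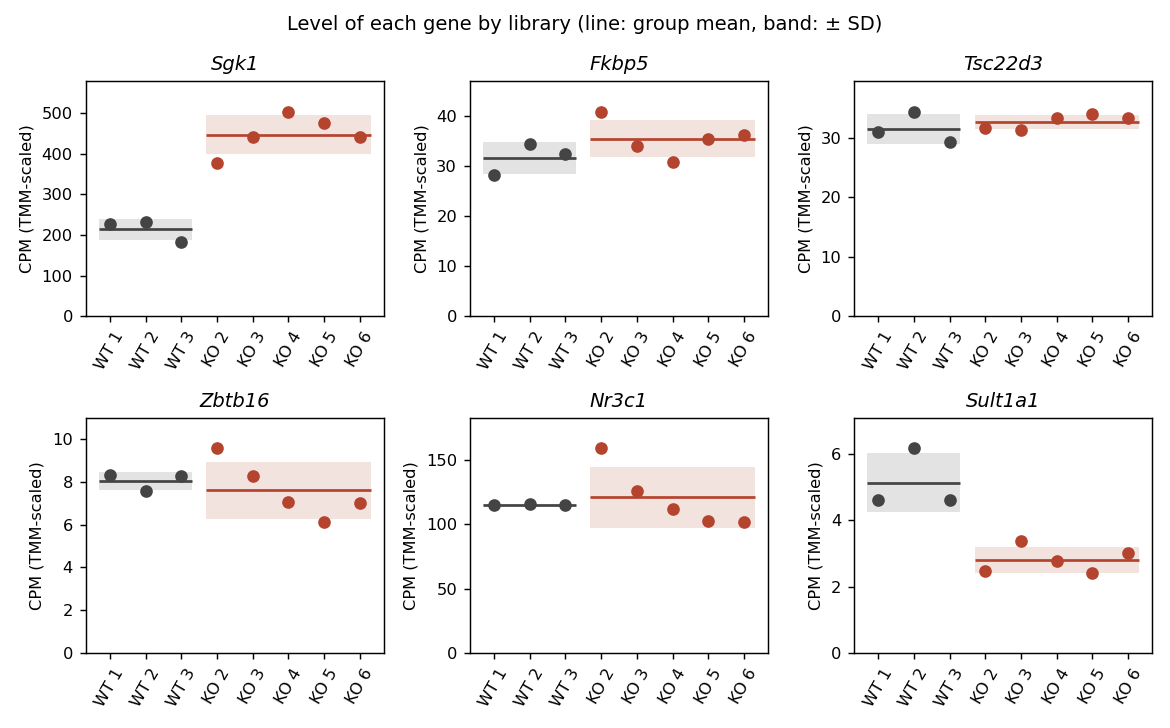
TMM-scaled CPM (vertical axes, from 0) of the 6 genes in the 3 WT libraries (grey) and 5 KO libraries (red). Each point is 1 library, each line a group mean and each band the mean ± SD. Sgk1 lies between 377 and 503 CPM in KO and between 184 and 231 CPM in WT. Sult1a1 is lower in every KO library, and the other 4 genes overlap.

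The receptor gene Nr3c1 (ENSMUSG00000024431, GRCm38 chr18:39410545-39519421, - strand) was measured at 115, 116 and 115 CPM in WT 1 to WT 3. In KO 2 to KO 6 it was at 159, 126, 112, 103 and 102 CPM. The WT libraries lay within 1 CPM of one another as printed, and the KO libraries lay on both sides of them, with KO 2 and KO 3 above and KO 4 to KO 6 below. The group means were 115 ± 0.671 CPM (SD, n = 3) and 121 ± 23.6 CPM (SD, n = 5), so the coefficient of variation was 0.582% in WT and 19.5% in KO. The log2 fold change, KO minus WT, was 0.06 (SE 0.14, 95% interval -0.25 to 0.38). With KO 2 and KO 3 alone against WT it was 0.31 (SE 0.11), and with KO 4 to KO 6 alone -0.11 (SE 0.06). The direction of Nr3c1 therefore differed between those sets of KO libraries. Over all tested genes, 0.891% were called in the former comparison and 42.8% in the latter, and Nr3c1 was called in neither.

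Per transcript length, in TPM over the 22121 genes whose lengths could be matched, Nr3c1 was at 70.5 ± 2.37 in WT and 74.4 ± 9.94 in KO. The mineralocorticoid receptor Nr3c2, which binds the same hormones and elements, was at 19.4 ± 1.57 TPM in WT and 20.5 ± 1.61 TPM in KO. The ratio of Nr3c1 to Nr3c2 was 3.45 to 3.81 in WT libraries and 3.44 to 4.0 in KO libraries, so the ranges overlapped. Nr3c2 had a log2 fold change of 0.06 (edgeR adjusted p = 0.768).

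Sgk1 (ENSMUSG00000019970, GRCm38 chr10:21882184-21999903, + strand) was higher in every KO library. Its CPM values were 226, 231 and 184 in WT 1 to WT 3. In KO 2 to KO 6 they were 377, 440, 503, 476 and 440. The lowest KO library, KO 2, lay well above the highest WT library, WT 2. Mean CPM was 214 ± 25.6 in WT (SD, n = 3) and 447 ± 47.4 in KO (SD, n = 5), a 2.09-fold ratio of the means. The fitted log2 fold change was 1.06 (SE 0.13). It was 0.93 (SE 0.14) with KO 2 and KO 3 alone and 1.16 (SE 0.08) with KO 4 to KO 6 alone. Since the set was chosen from a consistent change of Sgk1 over these libraries, its presence in each subset is part of that choice. It ranged from 0.97 to 1.13 when each of the 8 libraries was left out in turn, and from 0.97 to 1.16 over the 10 ways of keeping 3 of the KO libraries. Its raw counts ran from 4115 to 10205.

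Ranked by TPM among 22121 genes, Sgk1 stood at 436, 467 and 592 in WT 1 to WT 3, and at 251, 196, 151, 169 and 176 in KO 2 to KO 6. Its level was 253 ± 26.1 TPM in WT and 543 ± 86.9 TPM in KO. It was the most abundant of the 6 genes in every library on this scale, followed by Nr3c1. Among the 320 tested genes at least as abundant as Sgk1 in mean CPM, Sgk1 included, its log2 fold change ranked 8 from the top. Over all 20167 tested genes it ranked 435. The set was chosen from that change, so nothing is read from either rank. The median log2 fold change was 0.12 over those abundant genes and 0.00 over all tested genes. The related kinase Sgk3 was at 3.65 ± 0.41 TPM in WT and 2.64 ± 0.435 TPM in KO, and Sgk2 was not among the genes of the table. Sgk1 made up 98.4% to 98.8% of the summed Sgk1 and Sgk3 TPM in WT and 99.4% to 99.6% in KO.

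Because Sgk1 is expressed in several cell types and is an early response gene, marker lists were read beside it. Immediate early genes took 0.0166% to 0.0174% of the counts in WT and 0.0306% to 0.0382% in KO. Of the 8 tested members of that list 7 were called higher (Fos, Fosb, Junb, Egr1, Atf3, Ier2 and Nr4a1) and Btg2 was called lower; Egr2 had 0 counts in at least 1 library. Muller glia markers took 0.166% to 0.169% in WT and 0.183% to 0.232% in KO, with Kcnj10, Sox9 and Vim of 7 called higher. Endothelial markers took 0.0236% to 0.0238% in WT and 0.0275% to 0.0406% in KO, with Kdr of 6 called higher. Astrocyte markers took 0.00287% to 0.00298% in WT and 0.00543% to 0.00798% in KO, with Gfap of 3 called higher. Microglia markers took 0.00486% to 0.00522% in WT and 0.00539% to 0.00682% in KO, with Tmem119 and Csf1r of 7 called higher. Pericyte markers took 0.00823% to 0.00933% in WT and 0.00963% to 0.0114% in KO, with Pdgfrb of 4 called higher. Cone markers went the other way, taking 0.0797% to 0.0975% in WT and 0.0505% to 0.0697% in KO, with Gnat2 and Pde6h of 5 called lower. Bipolar, amacrine, horizontal, ganglion cell and pigment epithelium lists overlapped between groups in their share of the counts. These counts stand beside 4.74% of all tested genes called higher and 2.84% called lower. No gene of the glial, vascular and cone lists was at 0 in a library. The part of these lists in the Sgk1 difference was not tested.

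Fkbp5, the co-chaperone gene (ENSMUSG00000024222, GRCm38 chr17:28399094-28517527, - strand), was at 28.1, 34.4 and 32.3 CPM in WT 1 to WT 3. In KO 2 to KO 6 it was at 40.8, 33.9, 30.7, 35.3 and 36.2 CPM. The groups overlapped, with KO 2 the highest and WT 1 the lowest. Means were 31.6 ± 3.21 CPM (SD, n = 3) and 35.4 ± 3.67 CPM (SD, n = 5), with a log2 fold change of 0.16 (SE 0.11, 95% interval -0.08 to 0.41). It was 0.24 (SE 0.13) with KO 2 and KO 3 alone and 0.12 (SE 0.09) with KO 4 to KO 6 alone. Fkbp5 overlaps other annotated genes on both strands, and since the strand setting is not given in the sources used here, its counts may include theirs.

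Tsc22d3, which encodes GILZ (ENSMUSG00000031431, GRCm38 chrX:140539528-140600659, - strand), was at 31, 34.4 and 29.3 CPM in WT 1 to WT 3. In KO 2 to KO 6 it was at 31.6, 31.3, 33.3, 34.0 and 33.3 CPM. All KO libraries fell inside the range of the WT libraries. Means were 31.5 ± 2.60 CPM and 32.7 ± 1.19 CPM, with a log2 fold change of 0.05 (SE 0.09, 95% interval -0.14 to 0.25). It was -0.00 (SE 0.11) with KO 2 and KO 3 alone and 0.10 (SE 0.08) with KO 4 to KO 6 alone. The gene is X-linked, and the lowest library, WT 3, was the one with 2132 counts of Y-linked Ddx3y; a part of that in its level was not tested.

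Zbtb16, the gene for PLZF (ENSMUSG00000066687, GRCm38 chr9:48654297-48836222, - strand), was the least abundant of the 3 readout genes. It was at 8.33, 7.57 and 8.26 CPM in WT 1 to WT 3. In KO 2 to KO 6 it was at 9.55, 8.27, 7.04, 6.13 and 7.02 CPM. The KO libraries again lay on both sides of WT, with KO 2 the highest of all and KO 4 to KO 6 below every WT library. Means were 8.05 ± 0.421 CPM and 7.60 ± 1.33 CPM, with a log2 fold change of -0.08 (SE 0.16, 95% interval -0.44 to 0.27). It was 0.15 (SE 0.16) with KO 2 and KO 3 alone and -0.25 (SE 0.13) with KO 4 to KO 6 alone. As in Nr3c1, KO 2 and KO 3 were the highest KO libraries. Raw counts were 120 to 220, so the counting error was larger than for Sgk1.

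The level of Sgk1 was also set against Fkbp5, Tsc22d3 and Nr3c1 within each library. The ratio of Sgk1 to Fkbp5 CPM was 5.71 to 8.04 in WT libraries and 9.23 to 16.4 in KO libraries. The ratio of Sgk1 to Tsc22d3 CPM was 6.30 to 7.28 in WT and 11.9 to 15.1 in KO. Sgk1 over Nr3c1, in TPM, was 3.11 to 3.87 in WT and 4.59 to 8.97 in KO. None of these ranges overlapped, and each contains the Sgk1 difference that the choice of genes rested on.

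**Figure D2:**
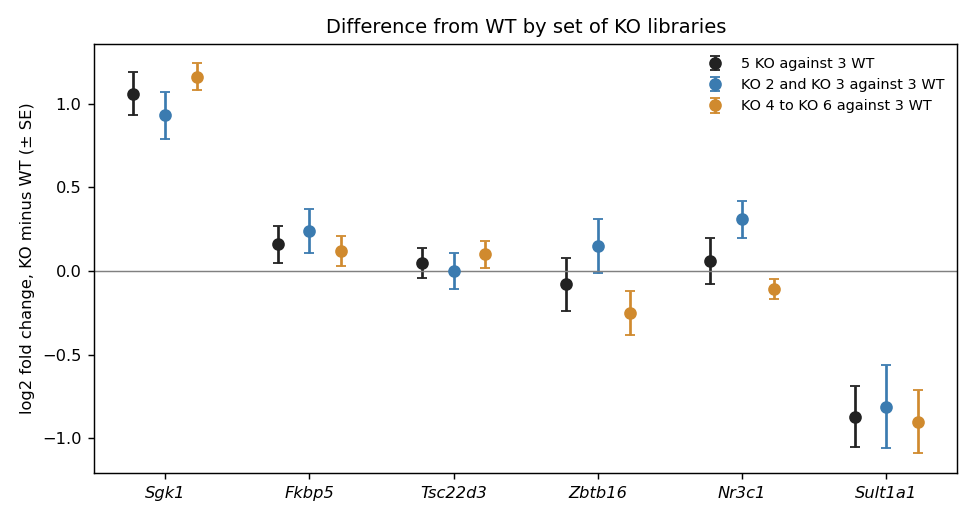
Log2 fold change, KO minus WT (axis, log2 units), of each of the 6 genes in the fit of all libraries and in the fits of KO 2 and KO 3 alone and KO 4 to KO 6 alone. Bars are ± SE, and the line marks 0. Sgk1 lies near 1 in all of them, at 1.06, 0.93 and 1.16, Sult1a1 lies below 0, and Nr3c1 and Zbtb16 change sign between the subsets.

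Sult1a1 (ENSMUSG00000030711, GRCm38 chr7:126672865-126676432, - strand) was lower in every KO library. Its CPM values were 4.61, 6.16 and 4.62 in WT 1 to WT 3. In KO 2 to KO 6 they were 2.47, 3.38, 2.76, 2.40 and 3.01. The highest KO library, KO 3, lay below the lowest WT library, WT 1. Means were 5.13 ± 0.894 CPM (SD, n = 3) and 2.80 ± 0.400 CPM (SD, n = 5), a ratio of 0.547, with a log2 fold change of -0.87 (SE 0.18). The change was similar in size with KO 2 and KO 3 alone (-0.81, SE 0.25) and KO 4 to KO 6 alone (-0.90, SE 0.19).

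Sult1a1 rests on 47 to 131 reads a library. When each of the 8 libraries was left out in turn its log2 fold change ran from -0.94 to -0.71, and over the 10 ways of keeping 3 KO libraries from -1.01 to -0.74. Of its 31-base words 11.37% also occur in another gene, and it overlaps Sgf29 on the opposite strand. Sgf29 was at 9.86 ± 0.585 CPM in WT and 10 ± 1.99 CPM in KO (log2 fold change 0.03, SE 0.17, edgeR adjusted p = 0.941). The cone markers given above were lower in the KO libraries as well, and their part in the Sult1a1 difference was not tested.

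Compared with one another per length, the 6 genes fell in the order Sgk1, Nr3c1, Tsc22d3, Fkbp5, Sult1a1 and Zbtb16 in WT by mean TPM. Tsc22d3 (31.3 ± 1.45 TPM) and Fkbp5 (29.1 ± 2.26 TPM) did not differ beyond their spread on this scale, although with the longest transcript they stood at 29.5 and 22 TPM. In KO the values by mean length were 33.1 ± 3.36 and 33.2 ± 2.91 TPM. Sult1a1 was at 7.57 ± 0.999 TPM in WT and 4.23 ± 0.627 TPM in KO, and Zbtb16 at 3.43 ± 0.308 and 3.27 ± 0.383 TPM. In KO 2 Zbtb16 (3.80 TPM) lay above Sult1a1 (3.43 TPM). TPM here uses the mean length of a gene's transcripts, which the choice of isoform can shift: with the longest transcript Sgk1 was at 186 TPM in WT and 421 TPM in KO.

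The other genes of the pathway were taken from 7 lists of 104 genes, of which 87 were tested. Of these 87, 9 were called higher in KO and 0 lower by edgeR (Benjamini-Hochberg adjusted), against 4.74% and 2.84% of all tested genes. At an unadjusted p under 0.05, 27 were higher and 3 lower, against 15.1% and 12.2% of all tested genes. DESeq2 called 18 higher and 0 lower, against 11.3% and 6.18% of the genes to which it gave an adjusted p. With limma voom 33 were called higher and 10 lower, against 20.3% and 20.6% of all tested genes. The median log2 fold change was 0.17, against 0.00 over all tested genes. The count of 9 moved to 0 without WT 1 or without WT 2, to 1 without WT 3, to 2 without KO 4, KO 5 or KO 6, to 18 without KO 2 and to 23 without KO 3. With KO 2 and KO 3 alone against WT, 1 gene of the lists was called, beside 0.891% of all tested genes. It was the cell cycle inhibitor gene Cdkn1c (log2 fold change 1.16, adjusted p = 0.0481), which did not pass in the fit of all libraries. Its level was 37.8 CPM in KO 3, the library with 4.07% lens counts, 21.8 CPM in KO 2, 11.8 to 15.6 CPM in KO 4 to KO 6 and 12.6 to 14.2 CPM in WT; the part of the lens counts was not tested.

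**Figure D3:**
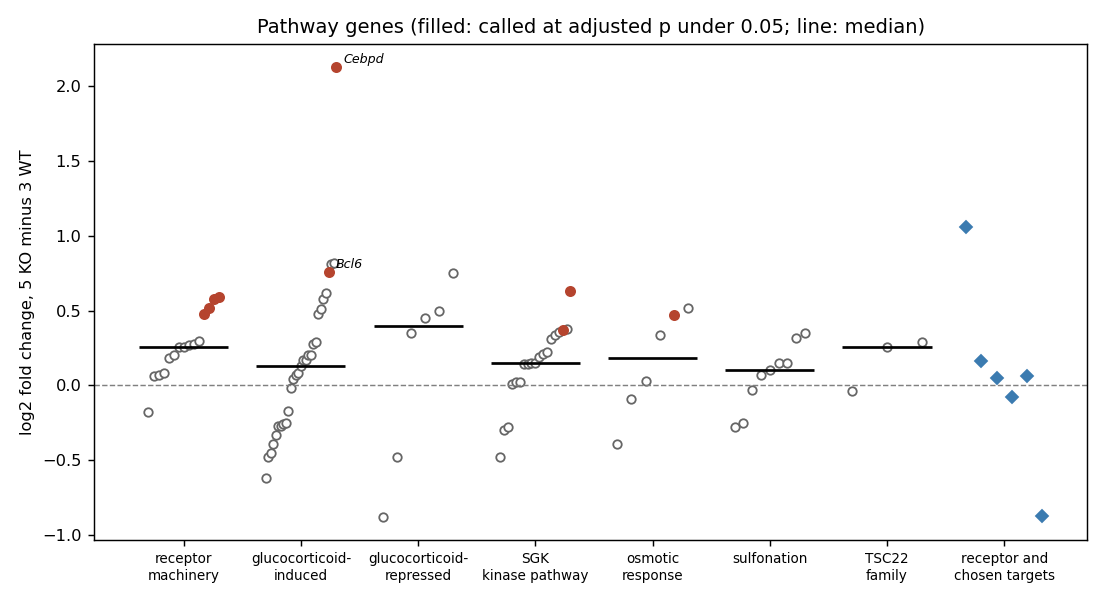
Log2 fold change, KO minus WT (axis, log2 units), of the tested genes of the 7 pathway lists, each point a gene. Filled red points are the 9 genes called by edgeR (Cebpd and Bcl6 named), all above 0, and lines are list medians. Blue diamonds on the right are Sgk1, Fkbp5, Tsc22d3, Zbtb16, Nr3c1 and Sult1a1.

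Of the 15 tested genes of the receptor's partners and steroid handling, 4 were called higher and 0 lower, beside 4.74% and 2.84% of all tested genes, and their median log2 difference was 0.26. Calls with KO 4 to KO 6 alone stand beside 42.8% of all tested genes called in that fit. Hsp90ab1, the constitutive cytosolic HSP90 that holds the receptor ready for hormone, rose from 451 ± 15.9 to 678 ± 49.0 CPM (log2 fold change 0.59, SE 0.10, adjusted p = 0.0132), with every KO library above every WT library. That call was lost without WT 1, WT 2 or WT 3. The log2 fold change was 0.53 with KO 2 and KO 3 alone (adjusted p = 0.106) and 0.63 with KO 4 to KO 6 alone (adjusted p = 4.88e-06). Hsp90aa1 of the same list was at 1920 CPM in WT and 2180 CPM in KO and was not called (0.18, adjusted p = 0.451). Ptges3 of that list was not called over all libraries (-0.18, adjusted p = 0.564). With KO 4 to KO 6 alone it was called lower (-0.43, adjusted p = 0.000343). Smarca4, the ATPase of the SWI/SNF remodelling complex, rose from 185 ± 6.69 to 264 ± 36.8 CPM (log2 fold change 0.52, SE 0.13, adjusted p = 0.0403). Smarca4 was at 0.38 with KO 2 and KO 3 alone (adjusted p = 0.217) and at 0.61 with KO 4 to KO 6 alone (adjusted p = 5.7e-06), on the log2 scale. The acetyltransferase gene Crebbp rose from 63.1 ± 1.51 to 94.2 ± 18.3 CPM (log2 fold change 0.58, SE 0.15, adjusted p = 0.0421). The log2 fold change of Crebbp was 0.26 with KO 2 and KO 3 alone (adjusted p = 0.164) and 0.77 with KO 4 to KO 6 alone (adjusted p = 6.31e-06). With an offset for GC content the log2 fold change of Smarca4 was 0.33 (adjusted p = 0.0705).

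Fkbp4, the co-chaperone that carries the receptor toward the nucleus, was at 201 ± 10.5 CPM in WT and 243 ± 24.6 CPM in KO, with KO 3 inside the WT range (log2 fold change 0.28, adjusted p = 0.130). It was called higher without KO 3 (0.34, adjusted p = 0.0141) and with KO 4 to KO 6 alone (0.34, adjusted p = 0.000759), and not with KO 2 and KO 3 alone (0.19, adjusted p = 0.437). With the GC offset it was 0.10 (adjusted p = 0.477). Hsd11b1, which regenerates active hormone inside cells, was near the limit of counting at 0.535 ± 0.0665 and 0.571 ± 0.428 CPM (log2 fold change 0.08, SE 0.58, adjusted p = 0.943). Hsd11b2, which inactivates the hormone, was in the table at 3 to 7 counts a library and was not tested.

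Of the 29 tested genes described as induced through the receptor, 2 were called higher and 0 lower, a share near the 4.74% called higher among all tested genes, and the median log2 fold change was 0.13. Bcl6, a transcriptional repressor, was at 18.9, 19.4 and 19.1 CPM in WT 1 to WT 3 and at 32.5, 26, 33.5, 34.4 and 35.0 CPM in KO 2 to KO 6. Its means rose from 19.1 ± 0.285 to 32.3 ± 3.66 CPM (log2 fold change 0.76, SE 0.11, adjusted p = 0.0073), and the call was lost without WT 1 or WT 2. Cebpd, an acute-phase transcription factor, was at 2.91, 3.86 and 3.29 CPM in WT 1 to WT 3 and at 6.86, 5.85, 22.7, 19.5 and 18.6 CPM in KO 2 to KO 6. All KO libraries lay above WT, and KO 4 to KO 6 lay far above KO 2 and KO 3. Its log2 fold change was 2.13 (SE 0.46, adjusted p = 0.0271), and it was 0.92 with KO 2 and KO 3 alone (adjusted p = 0.0928) and 2.60 with KO 4 to KO 6 alone (adjusted p = 1.53e-07). That of Bcl6 was 0.61 (adjusted p = 0.0642) and 0.85 (adjusted p = 2.81e-06) in the same fits.

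Another 4 genes of the list that are often read as receptor targets did not pass the test over all 8 libraries. Per1, a clock gene, was at 77.3 ± 1.93 CPM in WT and 88.9 ± 8.47 CPM in KO (log2 fold change 0.20, adjusted p = 0.183), and its groups overlapped. Klf9, a transcription factor gene, was at 229 ± 20.3 and 189 ± 38.6 CPM (log2 fold change -0.27, adjusted p = 0.295). Dusp1, a phosphatase of MAP kinases, had a log2 fold change of 0.28 (adjusted p = 0.331). Ddit4, an inhibitor of mTOR signalling, had a log2 fold change of 0.17 (adjusted p = 0.325). With KO 4 to KO 6 alone, where 42.8% of tested genes were called, Klf9 was called lower (-0.47, adjusted p = 0.00115), and Dusp1 (0.46, adjusted p = 0.00275) and Ddit4 (0.29, adjusted p = 0.00197) were called higher. With KO 2 and KO 3 alone their log2 fold changes were -0.00, -0.01 and -0.00, and none was called (adjusted p = 0.994, 0.984 and 0.995). With limma voom and library quality weights these 3 genes were called in the same directions as with KO 4 to KO 6, and Per1 was not. With the GC offset the log2 fold change was -0.02 for Per1, -0.05 for Ddit4 and 0.17 for Dusp1, so the sign of Per1 and Ddit4 turned, and none of them was called.

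Of the 6 tested genes described as repressed through the receptor, 0 were called, with a median log2 fold change of 0.40. At an unadjusted p under 0.05, 3 were higher in KO and 0 lower. DESeq2 called 1 higher and 0 lower. Limma voom and the fit of KO 4 to KO 6 each called 3 higher and 0 lower. With the GC offset 1 was called higher and 0 lower, beside 803 higher and 512 lower of 18028 tested genes. The other shares over all genes are those given above. In the osmotic response list edgeR called 1 of 6 higher and 0 lower, beside the same 4.74% and 2.84% of all tested genes, DESeq2 called 2 higher, and limma voom and the fit of KO 4 to KO 6 each called 3 higher and 2 lower. The gene called by edgeR was Slc5a3, the sodium-coupled myo-inositol transporter (23.6 ± 3.15 to 32.7 ± 1.77 CPM, log2 fold change 0.47, adjusted p = 0.0317). Nfat5, which encodes the osmotic stress transcription factor, was at 192 ± 13.4 CPM in WT and 196 ± 28.1 CPM in KO and was not called (log2 fold change 0.03, adjusted p = 0.888; 0.23 with the GC offset, adjusted p = 0.135). In the lists of 9 tested sulfonation genes and 3 tested TSC22 relatives, 0 were called by edgeR; 1 and 2 of them had an unadjusted p under 0.05, and DESeq2 called 0 and 1.

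The kinase pathway around Sgk1 had 19 tested genes, of which 2 were called higher and 0 lower, beside 4.74% and 2.84% of all tested genes, with a median of 0.15. Ndrg2, whose product is an SGK1 substrate, rose from 83.9 ± 9.65 to 130 ± 24.2 CPM (log2 fold change 0.63, SE 0.16, adjusted p = 0.0414), with KO 3 overlapping WT 2. Foxo1, a transcription factor that SGK1 and AKT keep out of the nucleus, rose from 23.4 ± 0.886 to 30.2 ± 1.36 CPM (log2 fold change 0.37, SE 0.09, adjusted p = 0.0368). Sgk3 was at 6.65 ± 0.563 CPM in WT and 4.76 ± 0.918 CPM in KO, with every KO library below every WT library, and did not pass (log2 fold change -0.48, SE 0.18, adjusted p = 0.112). With the GC offset it was -0.20 (adjusted p = 0.453), and that of Ndrg1 was -0.00. The ubiquitin ligase gene Nedd4l had a log2 fold change of 0.31 (adjusted p = 0.0645), and Ndrg1, another SGK1 substrate, of 0.14 (adjusted p = 0.385). Transcript levels of Ndrg1 and Ndrg2 do not report their phosphorylation, which was not measured. With KO 2 and KO 3 alone Ndrg2, Foxo1, Sgk3 and Nedd4l were at 0.43, 0.33, -0.31 and 0.19 and Slc5a3 at 0.49 on the log2 scale, and none was called. With KO 4 to KO 6 alone they were at 0.76, 0.40, -0.60, 0.40 and 0.47, and each was called, as were 42.8% of all tested genes in that fit, while Ndrg1 (0.11) was not. Apart from Hsp90ab1 and Bcl6, each of the called pathway genes kept its call in 2 of the 8 fits that left out 1 library, those without KO 2 or without KO 3.

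The genes whose levels followed each of the 6 most closely over the 8 libraries were found among 12246 tested autosomal genes, by Pearson's r of log2 CPM. These are descriptions: the libraries share the step between WT and KO and the separation of KO 4 to KO 6. For Sgk1 they were the tubulin gene Tubb2b (r = 0.997), the fatty acid oxidation gene Acadm (0.989), the kinase gene Camk2g (0.987), the myosin gene Myo5b (0.984) and the immediate early gene Ier2 (0.981). Their levels were all higher in KO, for instance 88.4 and 176 CPM in WT and KO for Camk2g. For Nr3c1 they were Pdgfc (0.993), Setd2 (0.992), Syt1 (0.988), Set (0.986) and Smim13 (0.985), which shared its high value in KO 2 and its values near or below WT in KO 4 to KO 6.

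For Sult1a1 the closest were Cep57l1 (0.992), Dck (0.983), Snhg17 (0.977), Ift81 (0.977) and Insig2 (0.973). For Zbtb16 they were Trip11 (0.979), Asxl2 (0.978), Zfp937 (0.978), Slc8a1 (0.974) and Mtr (0.971). The likeness was weaker for the genes that varied little: Fkbp5's closest were Smap2, Parn, Grap2, Rtkn and Zbtb2 (0.917 to 0.936) and Tsc22d3's were Cox4i1, Acbd6, Farsb, Aqr and Zfp524 (0.921 to 0.940). No gene appeared in the lists of 2 of the 6.

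**Figure D4:**
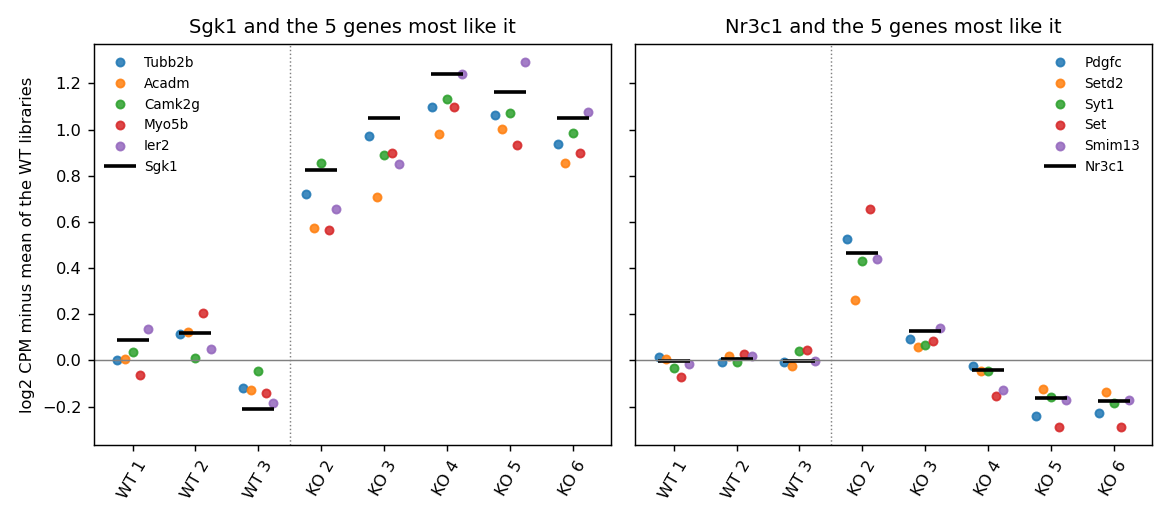
Log2 CPM minus the mean of the WT libraries (vertical axis, log2 units) by library for Sgk1 (left) and Nr3c1 (right), drawn as black bars, and for the 5 genes with the highest Pearson r with each over the 8 libraries (coloured points). The Sgk1 genes are higher in every KO library, and the Nr3c1 genes are highest in KO 2.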

How the data were processed

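RNA was sequenced from retinas of 3 WT and 5 KO mice, grouped by the genotype in the labels. The authors deposited a table of whole-number counts per gene and library. The submitters' processing notes name Trim Galore, Salmon 1.10.2, DESeq2 and GRCm38 without their roles, so the counts may be rounded estimates; the annotation release and the strand setting are not given in the sources used here. Every gene has at least 16 counts in total, and 106 genes have no symbol.

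Counts were scaled by TMM and compared with edgeR 4.0.16 (glmQLFit, glmQLFTest; R 4.3.3) over all genes kept by filterByExpr, with no covariate, and p-values were adjusted by Benjamini-Hochberg. The edgeR steps were tested on simulated data. Alternatives were DESeq2 1.42.0, limma voom 3.58.1, other scalings and filters, a GC offset, fits without libraries, and a replicate block. A floor of 3 counts equals 0.119 to 0.169 CPM, and covers counting error only. TPM used GENCODE M21 transcript lengths, matched by Ensembl identifier. No pair of libraries of the same group agreed within sampling noise (chi-square per degree of freedom at least 5.38). Each library is a separate animal, and p-values measure the spread between these animals.

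The genes followed and the gene lists were chosen with earlier results of these data known. Named genes were those 6, every called gene of the lists (1 is not reported here), 12 named whatever their values (Hsp90ab1 is in both sets, and Sgk2 has no value), and for each of the 6 the 5 genes with the highest Pearson r. Genes added after their values were seen are Cdkn1c, Nfat5, Hsd11b2, Hsp90aa1, Ptges3, Sgf29 and those of the marker lists.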

Additional observations from a re-analysis of the deposited data

Results flagged for a closer look

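Among 71 values examined in the 5 KO libraries, 5 had a highest or lowest library whose gap to the next exceeded 0.71 of the group's range; about 3.55 would be met by chance. KO 3 was the low one for Smarca4 (199.9 CPM, a gap of 0.796 of the range) and for Bcl6 (25.96 CPM, 0.726). It was also low for rod markers (3.33% of counts, 0.772) and high for lens markers (4.07% of counts, 0.996). KO 2 was high for red cell markers (0.00857% of counts, 0.757). None of the 6 genes themselves had such a gap.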

How the results depend on the processing

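Over 30 alternatives, the log2 fold changes of Sgk1, Fkbp5, Tsc22d3 and Sult1a1 moved by less than the spread between libraries. Those of Zbtb16 and Nr3c1 moved with the subset: with KO 2 and KO 3 alone they were 0.15 and 0.31, and over WT 2, WT 3, KO 2 and KO 3 they were 0.17 and 0.30 with no replicate block, 0.17 and 0.29 with the replicate number as a block, and 0.17 and 0.29 with the pairing crossed.

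Counts of genes called moved more, from 1529 over all genes and 9 higher in the pathway lists. DESeq2 called 3034 and 18, and limma voom with library quality weights 8248 and 33, with 10 pathway genes lower. With library size alone 5 pathway genes were called higher, and 41.8% of all calls were higher in KO, against 62.5% with TMM. Leaving out 1 library gave 132 to 3992 genes over the table, 0 to 23 higher in the lists and 0 to 3 lower. Leaving out pairs of KO libraries gave 8416 and 33 higher with 11 lower (KO 2 and KO 3), 399 and 3 (KO 2 and KO 4), 496 and 3 (KO 2 and KO 5), 645 and 4 (KO 2 and KO 6), 2540 and 13 (KO 3 and KO 4), 2225 and 13 (KO 3 and KO 5), 2593 and 15 with 1 lower (KO 3 and KO 6), 118 and 0 (KO 4 and KO 5), 191 and 0 (KO 4 and KO 6), and 203 and 1 (KO 5 and KO 6). KO 2 and KO 3 alone gave 180 and 1. Each of these fits used fewer libraries than the main fit, and the counts rose in some and fell in others. The cause was not tested. Over 19 named pathway genes, 416 fits left a gene on its side of the threshold, 132 lost a call and 20 gained one, and no called gene changed direction.

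With the longest transcript in place of the mean length, TPM in WT and KO was 186 and 421 for Sgk1, 48.2 and 53.6 for Nr3c1, 29.5 and 33.0 for Tsc22d3, 22 and 26.5 for Fkbp5, 10 and 5.92 for Sult1a1, and 4.25 and 4.26 for Zbtb16. By Spearman's rho in place of Pearson's r, 2 of the 5 genes named for each of Sgk1, Zbtb16 and Sult1a1, 1 of those for Tsc22d3 and 0 for Fkbp5 and Nr3c1 ranked among the 5 closest. Genes tied in rho were given the best rank of their tie, so the 5 closest were not always a defined set.

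Replicate numbers 2 and 3 occur in both groups, but nothing in the labels pairs those animals. Deviations of same-numbered libraries correlated at -0.004 and -0.241. The replicate block gave 52 genes and 0 of the lists, against 14 and 0 with no replicate block. The crossed pairing, added after the data were seen, gave 527 genes, with 4 of the lists higher and 2 lower. Sult1a1 and Zbtb16, at 47 to 220 counts a library, carry the largest counting error of the 6.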
